A study of Mus musculus with 10 samples.

Results

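The genes described here are the UDP-glucuronosyltransferases (UGT), the cytosolic sulfotransferases (SULT) and the soluble glutathione S-transferases (GST), measured in livers of mice with Fas-triggered injury. Members were all protein-coding genes whose mouse symbol begins with Ugt1 to Ugt3, with Sult1 to Sult7, or with Gst followed by the class letter a, k, m, o, p, t or z. The rule used names alone, and it found 63 of the 38922 genes in the files, namely 20 UGT, 21 SULT and 22 GST genes. Another gene of the same rule, Ugt2a1, was not analysed here. Liver RNA was sequenced from wild-type male C57BL/6N mice, an inbred strain, at 6 weeks of age. In 5 of them, 0.5 µg/g of CD95-Ab had been injected intraperitoneally, an antibody that activates the death receptor Fas. The other 5 were saline-injected controls, and all 10 were killed at 6 h. Each mouse gave a library of its own from 500 ng of total RNA of whole liver, so hepatocytes, other liver cells and blood were read together.

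These enzymes make up most of phase II metabolism, in which a drug, hormone, bile pigment or reactive chemical is joined to a water-soluble group. UGT proteins sit in the endoplasmic reticulum and transfer glucuronic acid from UDP-glucuronic acid. SULT proteins transfer sulfate from the donor PAPS in the cytosol, and GST proteins attach glutathione to reactive, electron-poor compounds. The hepatocyte is the main site of all these reactions in the body, and the conjugates leave it through transporters into bile or blood.

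The authors' expected counts totalled between 25965699 and 62097636 per mouse, and 3 counts corresponded to between 0.048 and 0.116 CPM, counts scaled to a total of 1000000, before further scaling. The CPM below are of totals adjusted by TMM, which discounts the few very abundant genes. After CD95-Ab, 6495 of 13719 tested genes (47.3%) changed at an FDR of 0.05 or less (edgeR quasi-likelihood test). The hepatocyte markers were abundant in every mouse, with sums of 111000 to 140000 CPM in saline-injected mice and 51600 to 92200 CPM after CD95-Ab. Of those 10 markers, 6 were lower and the median log2 fold change was -0.63. Of 8 pericentral markers 2 were lower (25.0%) and 1 higher, and of 7 periportal markers 3 were lower. Of all tested genes, 22.0% were lower and 25.4% higher. Summed neutrophil markers went from between 4.08 and 10.5 CPM to between 109 and 435 CPM, and summed erythrocyte markers from between 135 and 323 CPM to between 1060 and 34000 CPM. Kupffer cell markers were higher in 2 of 6 cases (33.3%, against 25.4% of all tested genes). All 6 tested neutrophil and all 5 erythrocyte markers were higher. So were 4 of 5 sinusoidal endothelial, 4 of 5 cholangiocyte, 3 of 4 stellate cell and 4 of 4 lymphocyte markers. The part of these shifts in the results below was not tested. In whole liver, fewer cells of a type and less RNA per cell cannot be told apart.

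Conjugating enzymes were mostly lower after CD95-Ab. Of the 63 genes, 45 had enough counts to be tested, and 29 of these were lower at an FDR of 0.05 or less, which is 64.4% compared with 22.0% of all tested genes. Only Gsta1, Gstp2 and Ugt2b38 were higher among the 45, which is 6.67% compared with 25.4% of all tested genes. The median log2 fold change was -0.64 over the 45 genes and 0.01 over all tested genes, and it was negative for 38 of the 45. By family, 11 of 18 UGT genes were lower and 1 was higher, 5 of 7 SULT genes were lower and 0 higher, and 13 of 20 GST genes were lower and 2 higher. Median log2 fold changes were -0.55, -1.02 and -0.68, in the same order. Of the 7 tested SULT genes, 0 were higher at an unadjusted p under 0.05 in edgeR either. Without the filter on low counts, edgeR called 2 SULT genes higher at an FDR of 0.05 or less. DESeq2, also run without that filter, called 1, Sult2b1, which was not among the 7. With 1 of the 10 mice left out at a time, the count of lower genes lay between 17, without mouse 2 of the CD95-Ab group, and 29.

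**Figure D1:**
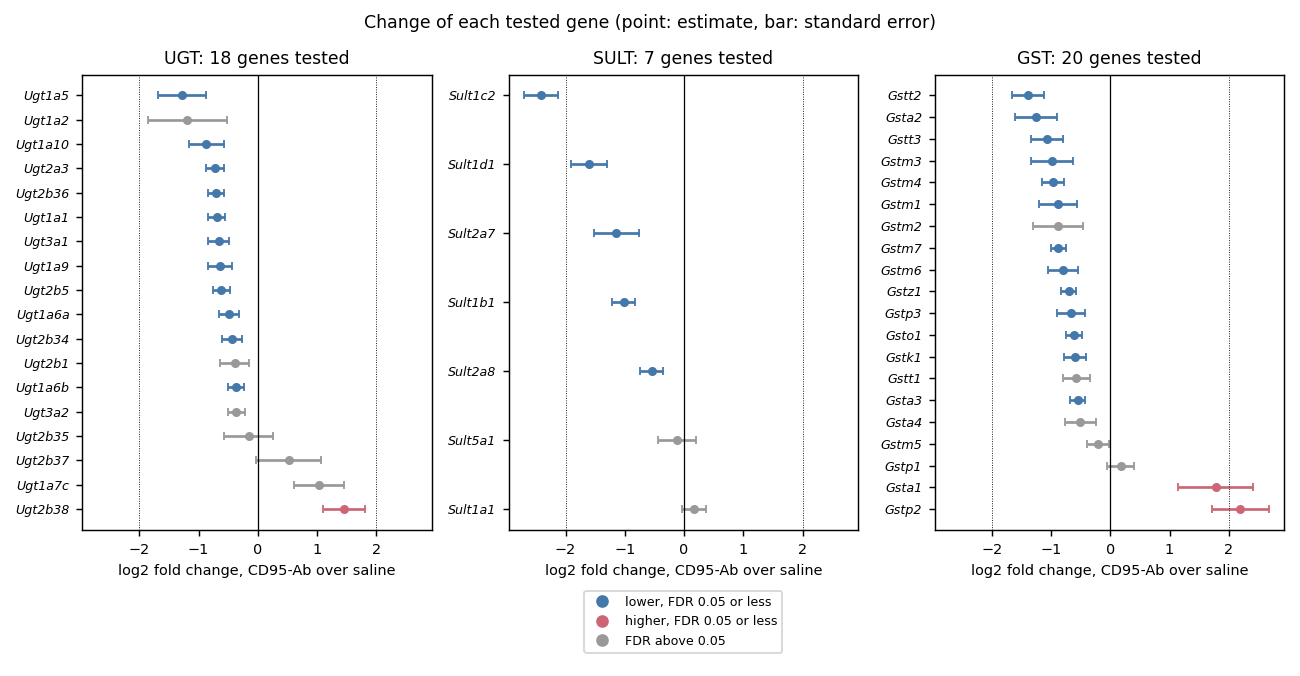
Log2 fold change of CD95-Ab over saline (horizontal axis) for the 45 tested genes, 1 panel per family, with points for the estimate and bars for its standard error, and dotted lines at -2 and 2. Blue points, lower at an FDR of 0.05 or less, fill most of each panel, 3 red points are higher, and 1 gene lies past each dotted line.

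The decreases were moderate in size. With a log2 fold change of -2 or less asked for as well, 1 gene passed, Sult1c2, compared with 1.11% of all tested genes. With a log2 fold change of 2 or more, 1 gene passed, Gstp2, compared with 6.59%. In 14 of the 45 genes all 5 mice injected with CD95-Ab lay below all 5 controls, against 14.7% of all tested genes. In 0 of the 45 did all 5 lie above, against 18.6%.

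Abundant genes of any kind were lower more often in these livers, so the families were also set beside genes of like level. Among genes with a mean of 100 CPM or more in saline-injected mice, 14 of 19 members were lower (73.7%), compared with 39.8% of all tested genes at that level. Between 10 and 100 CPM it was 11 of 16 (68.8%), compared with 26.4%. Between 1 and 10 CPM, 3 of 8 members were lower and 2 were higher, compared with 19.6% lower and 28.4% higher among all tested genes.

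Summed over all its genes, each family had a mean after CD95-Ab of 68.5% to 76.5% of that in controls. UGT transcripts summed to 3590, 3070, 4190, 4190 and 3730 CPM in saline-injected mice 1 to 5 and to 2440, 2390, 2380, 2760 and 2890 CPM after CD95-Ab. All 5 treated mice were below all controls (mean 2570 ± 235 against 3750 ± 468 CPM, SD, n = 5). For SULT the sum was 707 ± 77.3 CPM against 924 ± 148 CPM (76.5%), and for GST 4230 ± 864 CPM against 5580 ± 1360 CPM (75.8%), with overlapping mice in both families. No test was run on these sums.

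**Figure D2:**
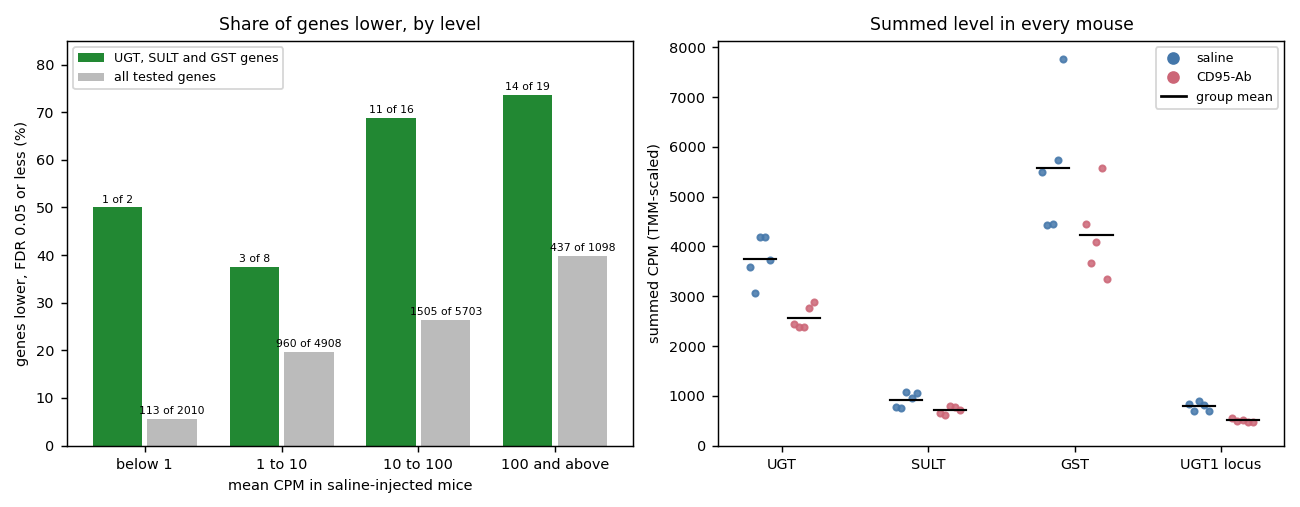
Left, percentage of genes lower at an FDR of 0.05 or less (vertical axis) by mean CPM in saline-injected mice, for the conjugating enzymes (green) and all tested genes (grey), with the counts printed above the bars. Right, summed CPM of each family and of the UGT1 locus in every mouse (points) with the group mean (line); the treated mice lie below all controls for UGT and for the UGT1 locus and overlap with them for SULT and GST.

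The UGT1 genes share 1 locus on chromosome 1. Each has its own first exon and promoter, and all are spliced to the same last exons, so the enzymes differ in their substrate-binding end and are identical at the other. The 9 genes had 740 coding bases in common, which is 46.0% of the 1608 coding bases of Ugt1a1, and between 57.2% and 100% of the stretches of 100 bases in each transcript also occurred in another gene. Reads from the shared exons cannot be assigned to 1 gene by sequence, and the authors' software divided them by estimation. In Ugt1a6a, 100% of these stretches also occurred in transcripts of Ugt1a7c. Even outside the shared exons the genes can be close: the stretches below are where the coding sequences of a close pair, Ugt1a6a (GRCm38 chr1:88138769-88138828, plus strand) and Ugt1a6b (chr1:88107237-88107296, plus strand), differ most, at the 9 capital letters.
Ugt1a6a: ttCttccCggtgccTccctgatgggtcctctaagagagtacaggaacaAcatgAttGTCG
Ugt1a6b: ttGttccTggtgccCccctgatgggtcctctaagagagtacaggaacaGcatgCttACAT

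The locus as a whole avoids that division of reads. Its summed level was 826, 697, 902, 814 and 697 CPM in saline-injected mice 1 to 5 and 559, 489, 516, 483 and 475 CPM after CD95-Ab. The groups did not overlap, and the mean fell to 64.1% of that in controls. Of its 8 tested genes, 6 were lower and 0 higher in edgeR, with 1 higher at an unadjusted p under 0.05 and in DESeq2, Ugt1a7c. The 6 lower genes became 2 without mouse 2 of the CD95-Ab group, and 3 without control mouse 1 or mouse 3 or 5 of the CD95-Ab group.

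Ugt1a1, the enzyme that glucuronidates bilirubin, had the highest level per transcript length of the locus, at 188 FPKM in saline-injected mice. It measured 406, 364, 496, 382 and 304 CPM in saline-injected mice and 223, 238, 268, 252 and 230 CPM after CD95-Ab. Every treated mouse was below every control (log2 fold change -0.69 ± 0.14, SE, FDR = 0.00199). Ugt1a5, Ugt1a6a, Ugt1a6b, Ugt1a9 and Ugt1a10 were lower as well, with log2 fold changes from -1.28 to -0.37 and overlapping groups. Ugt1a6 and Ugt1a9 enzymes are known for glucuronidating phenols. Ugt1a7c was the gene for which the units of the files differed in direction: it measured 1.12 ± 0.648 CPM in controls and 2.32 ± 1.24 CPM after CD95-Ab (FDR = 0.0606), but 1.15 and 1.11 FPKM. It lies outside the rule for named genes and was chosen after its values were seen.

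The UGT2 genes, on chromosome 5, glucuronidate steroids, bile acids and many drugs. Of 8 tested, 4 were lower and 1 was higher, and their sum fell to 69.1% of that in controls (1850 ± 239 against 2680 ± 376 CPM, SD, n = 5). Ugt2b5 and Ugt2b36 had the highest FPKM of all UGT genes in saline-injected mice, 492 and 353. Ugt2b36 measured 561, 499, 612, 594 and 720 CPM in controls and 355, 342, 341, 415 and 384 CPM after CD95-Ab. These ranges were far apart, and the log2 fold change was -0.70 ± 0.14 (SE, FDR = 0.00125).

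Ugt2b5 and Ugt2a3 also separated the groups. Ugt2b5 had 830, 686, 982, 904 and 985 CPM in saline-injected mice and 627, 553, 483, 576 and 621 CPM after CD95-Ab (log2 fold change -0.62 ± 0.15, SE, FDR = 0.00465). The lowest control was above the highest treated mouse. Ugt2a3 had 204, 169, 208, 235 and 216 CPM in controls and 103, 104, 129, 155 and 135 CPM after CD95-Ab (log2 fold change -0.72 ± 0.15, SE, FDR = 0.00175). Its groups did not overlap.

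Ugt2b34 was close to the threshold, with 346 ± 41.2 CPM in controls and 256 ± 58.3 CPM after CD95-Ab (SD, n = 5, FDR = 0.0457), and it lost the call in 8 of 10 fits that left out 1 mouse. Mouse 5 of the CD95-Ab group, at 357 CPM, was level with the controls, and the other 4 treated mice were below all of them. Ugt2b1 did not pass, with 582 ± 188 CPM and 443 ± 120 CPM (log2 fold change -0.39 ± 0.25, SE, FDR = 0.216), and its groups overlapped. Of the UGT3 genes, whose enzymes use other sugar donors, Ugt3a1 was lower (log2 fold change -0.66 ± 0.18, SE, FDR = 0.00828) and Ugt3a2 was not called (-0.36 ± 0.15, FDR = 0.0626).

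**Figure D3:**
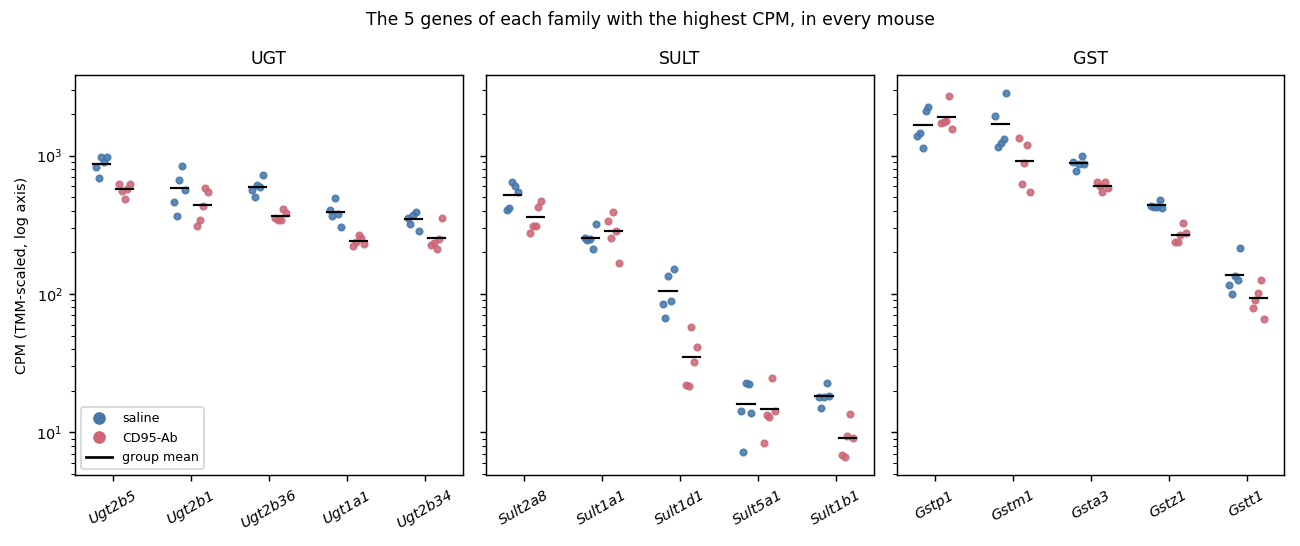
CPM (vertical axis, log scale) of the 5 genes with the highest CPM in each family, with a point for each mouse and a line for the group mean. Saline (blue) and CD95-Ab (red) mice do not overlap for Ugt2b5, Ugt2b36, Ugt1a1, Sult1d1, Sult1b1, Gsta3 and Gstz1, and they overlap for the other 8 genes.

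Sulfotransferase transcripts in these male livers came mainly from 2 genes. Sult2a8 and Sult1a1 made up 49.0% ± 5.68 and 37.5% ± 6.10 (SD, n = 5) of the summed SULT FPKM in saline-injected mice. They behaved differently: Sult2a8, of the hydroxysteroid and bile acid class, was lower, whereas Sult1a1, which sulfates phenols, was not called. Sult2a8 measured 406, 419, 647, 601 and 544 CPM in controls and 275, 312, 311, 423 and 474 CPM after CD95-Ab (log2 fold change -0.54 ± 0.20, SE, FDR = 0.0378). Mice 4 and 5 of the CD95-Ab group were inside the range of the controls, and the call was lost in 6 of 10 fits that left out 1 mouse. Sult1a1 measured 252, 245, 249, 210 and 319 CPM in controls and 337, 256, 392, 285 and 167 CPM after CD95-Ab (log2 fold change 0.17 ± 0.21, SE, FDR = 0.530). The treated mice were spread on both sides of the controls. Whether the changes of both genes differ was not tested.

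The largest decreases of all 45 genes were in the SULT1 class. Sult1c2, a minor transcript in liver, measured 6.19, 5.51, 4.45, 2.58 and 4.25 CPM in controls and 0.578, 0.637, 0.836, 1.17 and 1.11 CPM after CD95-Ab. It fell to 18.8% of the control level, with a log2 fold change of -2.41 ± 0.28 (SE, FDR = 3.91e-05), and all treated mice were below all controls. Its transcript shared no stretch of 100 bases with another gene.

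Sult1d1 and Sult1b1 lie near each other on chromosome 5, and their enzymes act on catecholamines and other phenols and, for Sult1b1, on thyroid hormone. Sult1d1 measured 84.8, 66.6, 135, 89.4 and 151 CPM in controls and 21.9, 21.5, 57.5, 32.1 and 41.4 CPM after CD95-Ab. It fell to 33.1% of the control level (log2 fold change -1.60 ± 0.31, SE, FDR = 0.00125). Sult1b1 measured 18.1, 14.9, 18.0, 22.9 and 18.4 CPM in controls and 6.87, 6.62, 9.40, 13.6 and 9.10 CPM after CD95-Ab (log2 fold change -1.02 ± 0.20, SE, FDR = 0.00123). Neither gene had overlapping groups, though mouse 4 of the CD95-Ab group came near the lowest control in Sult1b1.

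Sult2a7 was lower at a very low level, from 0.632 ± 0.215 CPM to 0.279 ± 0.140 CPM (log2 fold change -1.14 ± 0.38, SE, FDR = 0.0281). It was the single tested member with 10 counts or more in at most 1 treated mouse, and so passed the filter through the controls, and the call was lost in 4 of 10 fits that left out 1 mouse. Sult5a1 measured 16.0 ± 6.55 CPM and 14.8 ± 6.06 CPM (FDR = 0.784). Most of this family was not testable in these livers. Of the 18 members with too few counts, 14 were sulfotransferases: Sult1c1, Sult1e1, Sult2a1 to Sult2a6, Sult2b1, Sult3a1, Sult3a2, Sult4a1, Sult6b1 and Sult6b2. The others were Gsto2, Gstt4, Ugt1a8 and Ugt2a2. Sult1c1, Sult2a1, Sult2a3, Sult2a4, Sult2a6 and Sult3a2 had a count of 0 in every mouse, which allows up to 0.116 CPM before TMM scaling in the shallowest library, a limit that covers counting error only. Sult1e1, the estrogen sulfotransferase, was at most 0.278 CPM in controls and 0.717 CPM after CD95-Ab.

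Among the GST classes, Gstp1, Gstm1 and Gsta3 had the highest levels per length, with 2470, 1400 and 875 FPKM in saline-injected mice. Together with Gstz1 and Gstt1 they were the 5 leading GST genes. The mu class, a cluster on chromosome 3 that detoxifies epoxides and quinones, had 5 of 7 genes lower and 0 higher, also with 0 higher at an unadjusted p under 0.05 and in DESeq2. The 5 lower genes became 2 without control mouse 5 or mouse 2 or 5 of the CD95-Ab group, and 3 without control mouse 1. Gstm1 measured 1930, 1160, 1240, 1310 and 2850 CPM in controls and 1350, 628, 882, 1200 and 542 CPM after CD95-Ab. The controls were widely spread and the groups overlapped (log2 fold change -0.88 ± 0.32, SE, FDR = 0.0385). Its call was lost in 5 of 10 fits that left out 1 mouse.

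The less expressed Gstm7 and Gstm4 changed by as much with far less spread. Gstm7 measured 44.0, 44.1, 46.2, 50.5 and 49.0 CPM in controls and 22.0, 21.8, 30.8, 30.8 and 22.1 CPM after CD95-Ab (log2 fold change -0.87 ± 0.13, SE, FDR = 0.000243). Gstm4 measured 54.6, 38.0, 51.8, 57.9 and 72.0 CPM in controls and 27.8, 24.5, 31.4, 36.2 and 21.1 CPM after CD95-Ab (log2 fold change -0.96 ± 0.19, SE, FDR = 0.00123). Neither gene had overlapping groups, and neither shared a stretch of 100 bases with another gene. Gstm3 and Gstm6 were lower with overlapping groups, and Gstm2 and Gstm5 were not called.

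Gstz1, Gstt2 and Gsta3 separated the groups in their own classes. Gstz1, the zeta-class enzyme of tyrosine breakdown, measured 434, 426, 427, 482 and 419 CPM in controls and 239, 236, 269, 327 and 275 CPM after CD95-Ab (log2 fold change -0.70 ± 0.13, SE, FDR = 0.000842). The controls lay within a narrow band, and the highest treated mouse was well under it. The theta-class gene Gstt2 measured 41.5, 36.9, 31.4, 40.3 and 74.0 CPM in controls and 14.5, 17.6, 14.3, 27.5 and 11.7 CPM after CD95-Ab (log2 fold change -1.39 ± 0.27, SE, FDR = 0.00132). It had the largest estimated decrease of all GST genes, and control mouse 5 stood far above the others. Gsta3, an alpha-class enzyme known for detoxifying aflatoxin in mice, measured 898, 774, 873, 992 and 875 CPM in controls and 647, 602, 548, 643 and 580 CPM after CD95-Ab. Its estimated decrease was the smallest among the lower GST genes, with no overlap between groups (log2 fold change -0.55 ± 0.13, SE, FDR = 0.00393). Gstt1 just missed the threshold, with 138 ± 44.9 CPM and 92.9 ± 23.3 CPM (log2 fold change -0.57 ± 0.23, SE, FDR = 0.0558).

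Gstp1, the pi-class gene with the highest FPKM of all 63 genes in both groups, did not follow the majority. It measured 1390, 1470, 1140, 2090 and 2260 CPM in controls and 1730, 1740, 1770, 2680 and 1550 CPM after CD95-Ab (log2 fold change 0.18 ± 0.23, SE, FDR = 0.539). The treated mice lay within the controls except mouse 4, which was above them. Its share of the summed GST FPKM was 42.0% ± 5.52 in controls and 57.6% ± 3.89 after CD95-Ab (SD, n = 5), while that of Gstm1 was 23.5% ± 5.15 and 15.5% ± 4.34. These shares were not tested.

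All 3 genes that were higher are close copies of another gene of their family. The coding sequences of Gsta1 and Gsta2 were 97.5% identical, those of Gstp1 and Gstp2 98.1% and those of Ugt2b5 and Ugt2b38 97.0%. Of all stretches of 100 bases, the length of 1 read, 81.8% in Gsta1, 63.5% in Gstp2 and 24.2% in Ugt2b38 also occurred in another gene. Such sharing was not limited to higher genes. Among lower genes it was 35.0% in Gsta2 and 24.7% in Ugt2b5, though 0 in Gstm4 and Gstm7. The coding stretches with the most differences are shown for the GST pairs, with differing bases in capitals: Gsta1 (GRCm38 chr9:78241561-78241620, plus strand), Gsta2 (chr9:78332125-78332184, minus strand), Gstp1 (chr19:4036694-4036753, minus strand) and Gstp2 (chr19:4040988-4041047, minus strand). Even there each pair differs at 5 of 60 bases.
Gsta1: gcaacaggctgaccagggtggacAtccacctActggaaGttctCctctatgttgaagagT
Gsta2: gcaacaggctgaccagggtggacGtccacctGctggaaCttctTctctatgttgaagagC
Gstp1: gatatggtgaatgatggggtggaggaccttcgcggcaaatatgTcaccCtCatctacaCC
Gstp2: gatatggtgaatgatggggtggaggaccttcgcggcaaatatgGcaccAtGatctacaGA

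Gsta1 and Gsta2, alpha-class enzymes that act on products of lipid peroxidation, moved in opposite directions. Gsta1 measured 10.9, 2.13, 2.11, 3.23 and 15.8 CPM in controls and 45.3, 23.7, 8.96, 31.5 and 9.59 CPM after CD95-Ab (log2 fold change 1.78 ± 0.63, SE, FDR = 0.0362). Control mice 1 and 5 were above the lowest treated mice, and the call was lost in 6 of 10 fits that left out 1 mouse. Gsta2, which lies outside the rule for named genes and is given because it is the copy, measured 44.2, 17.2, 18.3, 17.5 and 33.9 CPM in controls and 12.7, 8.28, 15.2, 14.7 and 4.72 CPM after CD95-Ab (log2 fold change -1.25 ± 0.36, SE, FDR = 0.0127). All treated mice were below all controls. Gm3776, which held 71.3% of the stretches of Gsta1, was not analysed here. With Gm10639, another gene that shares stretches with both, the sum was 34.0 ± 18.5 CPM in controls and 38.4 ± 19.3 CPM after CD95-Ab. Refitted as 1 gene, an alternative chosen after seeing the data, the sum had a log2 fold change of 0.17 ± 0.41 (SE, FDR = 0.748).

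Gstp2 measured 3.76, 4.03, 0.873, 1.54 and 2.73 CPM in controls and 23.0, 9.81, 8.64, 13.9 and 3.99 CPM after CD95-Ab (log2 fold change 2.19 ± 0.48, SE, FDR = 0.00291). Mouse 5 of the CD95-Ab group was just under the highest control, and the other 4 treated mice were above all controls. Added to Gstp1, which had far more reads, it gave a sum with a log2 fold change of 0.19 ± 0.23 (SE, FDR = 0.523). Ugt2b38 measured 7.13, 6.08, 16.5, 19.7 and 7.53 CPM in controls and 15.1, 34.5, 37.5, 36.4 and 31.8 CPM after CD95-Ab (log2 fold change 1.45 ± 0.36, SE, FDR = 0.00551). Mouse 1 of the CD95-Ab group lay inside the range of the controls, and the other 4 were above it. The sum of Ugt2b5, Ugt2b38 and Ugt2b37 had a log2 fold change of -0.55 ± 0.14 (SE, FDR = 0.00807). Ugt2b5 had a mean of 877 CPM in controls and Ugt2b38 11.4 CPM, so that sum largely gives Ugt2b5. These sums do not depend on how reads were divided within a set. Where 1 copy has far more reads, they cannot show what the minor copy did.

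**Figure D4:**
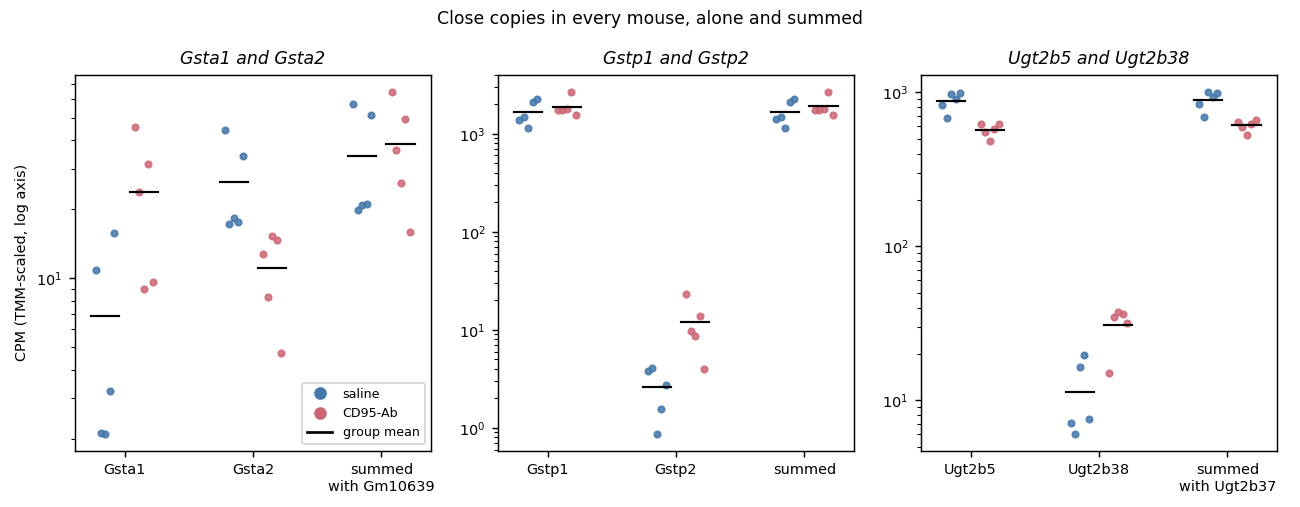
CPM (vertical axis, log scale) of 3 pairs of close copies and of their sums in every mouse (points) with the group mean (line), saline in blue and CD95-Ab in red. Gsta1 and Gsta2 move in opposite directions and their sum overlaps between groups, Gstp1 is far above Gstp2, and the sum with Ugt2b5 follows Ugt2b5.

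Mice of a group differed in how the enzymes as a whole stood. Over the 36 members with a mean of 10 CPM or more, control mouse 2 was the lowest control in 22 and control mouse 5, which had the most counts, was the highest in 17. Among treated mice, mouse 4 was the highest in 17. Relative to the mean of the controls, the median log2 value over these members was -0.80, -0.72, -0.65, -0.41 and -0.68 in treated mice 1 to 5. All 5 medians were below 0, that of mouse 4 the least so.

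Promoters of the members were searched for letters of factors known to act on these genes, and results for the genes were known when the motifs were chosen. RefSeq entries on GRCm38.p6, running from 250 bases before to 50 after a start site, matched 55 of the 63 genes and 40 of the 45 tested. A match is a description of letters and not a measured binding site. Searched on both strands, the antioxidant response element TGACNNNGC was found in 3 tested members (Gsta3, Gstm5 and Gstm7, 2 of them lower). It was in 4.55% of the 66 promoters of members, tested or not, and in 12.4% of 32544 promoters. The AP-1 letters TGANTCA were in 10 tested members, of which 3 were lower, 2 higher (Gstp2 and Ugt2b38) and 5 not called. They were in 19.7% of member promoters and in 7.79% of all promoters. The HNF4 letters CAAAGTCCA were in Sult1b1 alone among tested members, in 1.52% of member promoters and in 0.479% of all promoters. The letters GCGTG of the aryl hydrocarbon receptor were in 9 tested members, 6 of them lower and 1 higher. They were in 19.7% of member promoters and in 32.6% of all promoters. Of all 45 tested members, 64.4% were lower and 6.67% higher. In Gstm5 a match of the letters GCGTG overlapped that of the antioxidant response element.

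The genes that supply the donor molecules did not move as a block. For sulfate, Papss2, the main PAPS synthase of liver, was lower (log2 fold change -1.15 ± 0.15, SE, FDR = 8.59e-05). Slc35b2 was lower too (-0.99 ± 0.11, SE, FDR = 1.84e-05). It carries PAPS into the Golgi, out of the cytosol where SULT proteins use it. The other 4 of 6 PAPS genes were not called, so 33.3% were lower, against 22.0% of all tested genes. For glucuronic acid, Ugp2, which makes UDP-glucose, was lower (log2 fold change -0.98 ± 0.15, SE, FDR = 0.000246). Of the transporter genes listed with it, Slc35d1 was not called (-0.21 ± 0.16, FDR = 0.298) and Slc35b1 was higher (0.79 ± 0.16, FDR = 0.00171). Transport of UDP-glucuronic acid was not measured. Ugdh, which turns UDP-glucose into UDP-glucuronic acid, was not called. Of these 4 listed genes 25.0% were lower and 25.0% higher, against 22.0% and 25.4% of all tested genes.

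Of 9 tested genes of glutathione supply, 4 were lower (44.4%, against 22.0% of all tested genes) and 2 were higher (22.2%, against 25.4%). The lower ones were Gclm, the modifier subunit of glutamate-cysteine ligase, Cth and Cbs, which make cysteine from methionine, and Chac1, which breaks glutathione down. The higher ones were Gsr, which regenerates glutathione, and Slc7a11, the cystine importer, which went from 0.993 ± 0.338 CPM to 7.11 ± 3.15 CPM (log2 fold change 2.85 ± 0.34, SE, FDR = 4.3e-05). Gclc, the catalytic subunit, measured 251 ± 42.5 and 257 ± 62.8 CPM and was not called. Among 5 tested membrane-bound and other GST-like genes, Mgst3 was lower and Ptges and Gstcd were higher, while Mgst1 had 2710 ± 806 and 2210 ± 633 CPM and was not called.

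Enzymes of the other conjugation routes were lower in 9 of 12 cases and higher in 0 (also 0 at an unadjusted p under 0.05 and 0 in DESeq2), with a median log2 fold change of -0.69. Of all tested genes, 22.0% were lower and 25.4% higher, and of the 7 of these enzymes at 100 CPM or more in controls 4 were lower, against 39.8% of all tested genes at that level. They included Glyat, which joins glycine to acids (-1.08 ± 0.14, SE, FDR = 8.56e-05), and the methyltransferase gene Inmt (-1.48 ± 0.37, SE, FDR = 0.00642). Of the transporters that export conjugates, Abcc2 and Abcc3 were lower (-0.59 ± 0.21 and -0.62 ± 0.15, FDR = 0.0322 and 0.00598), Abcc4 was higher (0.86 ± 0.25, FDR = 0.0132) and Abcg2 was not called. Of the 3 tested deconjugating enzymes, Gusb, Arsa and Arsb, 0 passed the FDR of 0.05 in edgeR and 0 in DESeq2, and 2 had an unadjusted p under 0.05.

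Of 10 genes for regulators of these families, 5 were lower and 2 were higher, compared with 22.0% lower and 25.4% higher among all tested genes. Of 2 NRF2 targets listed with them, 1 was lower and 1 higher. The largest decrease was in Nr1i3, the receptor CAR that switches on conjugating enzymes in response to drugs, which fell from 191 ± 34.0 to 24.0 ± 12.9 CPM (log2 fold change -2.99 ± 0.32, SE, FDR = 2.06e-05). Ppara and Cebpa, for 2 hepatocyte transcription factors, were lower too (-1.60 ± 0.35 and -1.63 ± 0.15, FDR = 0.00261 and 7.81e-06). Rxra and Keap1 were also lower (-0.819 ± 0.206 and -0.425 ± 0.151, FDR = 0.00641 and 0.0358). Nfe2l2, for the stress regulator NRF2, was higher (1.11 ± 0.15, FDR = 8.63e-05). Ahr, for the aryl hydrocarbon receptor, was higher too (0.495 ± 0.136, FDR = 0.0104). Of the NRF2 targets, Hmox1 was higher (3.30 ± 0.31, FDR = 7.3e-06) and Nqo1 lower (-0.93 ± 0.32, FDR = 0.0307). Hnf4a and Nr1i2, the receptor PXR, were not called.

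**Figure D5:**
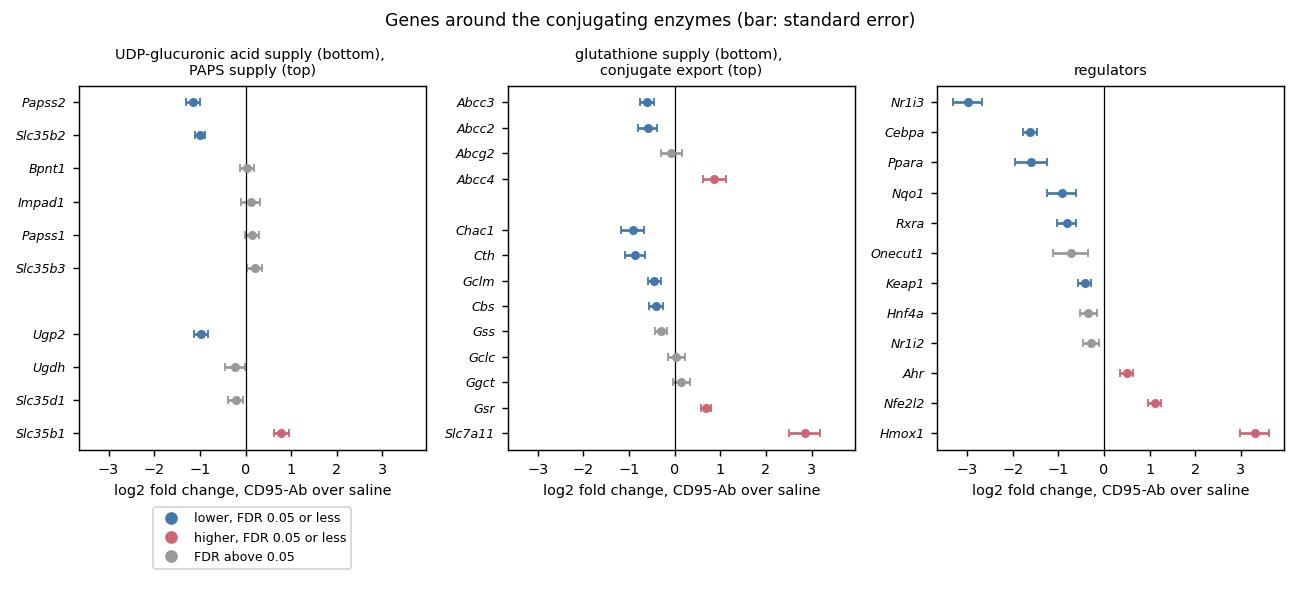
Log2 fold change of CD95-Ab over saline (horizontal axis) for tested genes of donor supply, export and regulation, with points for estimates and bars for standard errors, coloured by the call. Lower and higher genes stand in every panel, with Nr1i3 at -2.99 and Hmox1 at 3.30 at the ends.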

How the data were processed

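Liver RNA of 10 mice was analysed, 5 saline-injected and 5 injected with CD95-Ab, grouped by the sample labels. TruSeq libraries were read from both ends, 100 bases each. The authors ran RSEM 1.2.19 and deposited expected counts, not normalized, and FPKM values, scaled by RSEM for transcript length and library total. The paper names a human annotation, but the identifiers are mouse ones, and the mouse release and genome build are not given in the sources used here. RSEM shares out reads that match several genes, so values of close copies depend on that step. Symbols, biotypes, positions and transcript sequences came from GENCODE mouse release 21 (GRCm38), which held 37606 of the 38922 identifiers. The deposited expected counts were whole numbers, so no rounding was needed.

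Genes were kept by filterByExpr (minimum count 10) and scaled by TMM. Groups were compared by quasi-likelihood F tests (edgeR 4.0.16, R 4.3.3) without covariates, and p-values were adjusted by Benjamini-Hochberg (FDR) over all 13719 genes. They measure the spread between these mice. Standard errors came from the F statistic. Tables and figures were made with Python 3.11.15, pandas 2.3.3 and matplotlib 3.10.9. The code was tested on simulated counts. The genes named are, per family, the 5 with the highest mean CPM and, among those at an FDR of 0.05 or less, the 4 with the smallest FDR in each direction. Members, gene lists and motifs were chosen with earlier results of these data known. Neither paper nor labels give a batch. Counts of no pair of mice in a group agreed within sampling noise. Alternatives were DESeq2 1.42.0, limma 3.58.1 on log2(FPKM + 0.1) and log2(FPKM + 1), the likelihood ratio test, RLE factors or unadjusted totals, no filter or at least 10 counts in every mouse, a prior count of 2, an FDR of 0.01, the replicate number as a block, each mouse left out in turn and, chosen after seeing the data, close copies merged. Of the lists, Sts was not matched by symbol. A gene of the regulator list and a stretch of sequence are not reported here.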

Additional observations from a re-analysis of the deposited data

Results flagged for a closer look

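Among 24 named genes and 4 sums, each looked at in both groups of 5 mice, 5 of 56 groups had a mouse whose gap to the next one exceeded Dixon's 95% critical value, as a share of the range of the group. Chance gives about 1 in 20 groups. Mouse 4 of the CD95-Ab group had 2680 CPM of Gstp1, with the other treated mice between 1550 and 1770 CPM. Control mouse 5 had 74.0 CPM of Gstt2, with the other controls between 31.4 and 41.5 CPM. Control mouse 4 had 482 CPM of Gstz1, with the others between 419 and 434 CPM. Mouse 5 of the CD95-Ab group had 357 CPM of Ugt2b34, with the others between 210 and 251 CPM, and mouse 1 of that group had 15.1 CPM of Ugt2b38, with the others between 31.8 and 37.5 CPM. Without that mouse, each of the 5 genes stayed on its side of the FDR of 0.05, with log2 fold changes of 0.00, -1.13, -0.69, -0.58 and 1.63 in the same order.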

How the results depend on the processing

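The count of lower members lay between 24 and 32 under every alternative that kept all mice and the FDR of 0.05. At an FDR of 0.01 the 29 lower members became 15 (5 UGT, 3 SULT and 7 GST), and 1897 of all tested genes were lower. Of the higher members, 1 GST gene, Gstp2, and the UGT gene Ugt2b38 kept the call there. Of 24 named genes, 15 stayed on the same side of the threshold with the same direction in every alternative. DESeq2 called 5 members higher (2 UGT and 1 SULT among them), 2 lower past a log2 fold change of -2 and 2 higher past 2. Without the filter there were 5 higher (2 SULT), with 2 and 3 genes past these limits. The added genes past the limits were Ugt2a2, Sult2b1 and Sult4a1, all with few counts. The likelihood ratio test called 2 UGT genes higher. With limma on log2(FPKM + 1), which shrinks changes of low genes, 0 genes passed -2 and 0 passed 2, although 29 members were lower and 3 higher at the FDR alone. With close copies merged, chosen after seeing the data, the sum with Ugt2b38 had a log2 fold change of -0.55, and the sums with Gsta1 and with Gstp2 were not called. The sums with Ugt2b38 and Gstp2 largely give the far more abundant Ugt2b5 and Gstp1, so they cannot show what the minor copy did.

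Leaving out 1 mouse gave 17 to 29 lower members, the fewest without mouse 2 of the CD95-Ab group. By family, 6 to 10 UGT genes were lower (7 without control mouse 1 or treated mouse 3, 6 without treated mouse 2), 3 to 5 SULT genes (3 without control mouse 3 or 4 or treated mouse 1 or 2) and 8 to 15 GST genes (8 without treated mouse 2). For higher genes it was 1 to 2 UGT genes (2 without control mouse 1 or treated mouse 4), 1 to 2 GST genes (1 without control mouse 2, 3 or 4 or treated mouse 1, 2 or 4) and 0 to 2 members past a log2 fold change of 2 (0 without control mouse 3 or treated mouse 1, 2 without control mouse 1 or 5). Of the 32 called members, 18 were called in all 10 of these fits. The call was lost in 8 fits for Ugt1a6b and Ugt2b34, in 4 to 6 for Gsta1, Gstm1, Gstm3, Gstp3, Sult2a7, Sult2a8, Ugt1a6a and Ugt1a10, and in 1 to 3 for Gstk1, Gstm6, Ugt1a5 and Ugt1a9. Sult5a1, not called, ranged from -0.40 to 0.04, and was 0.04, 0.00 and 0.03 without control mouse 3, control mouse 4 and treated mouse 1.

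Replicate numbers 1 to 5 occur in both groups, but the sources do not say that they pair mice, so they were not taken as pairs. Same-numbered mice deviated together with correlations from -0.274 to 0.257 (mean 0.037, against -0.006 for different numbers). Of the 10 mice, 4 correlated best with their own number among the 5 mice of the other group. These values cannot settle whether the numbers pair mice. With the replicate block, 24 members were lower and 4 higher, 2 of them UGT genes and 2 past a log2 fold change of 2. Depth limits what can be said of the 18 members that were not tested.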
